A study of Mus musculus with 24 samples.

Results

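The 51 genes described here encode proteins that take a cell into mitosis, build the spindle, condense the chromosomes, trigger anaphase and divide the cytoplasm. They were chosen by symbol from the deposited count table, and all 51 were found among its 43280 gene symbols. By role, 14 were entry genes (kinases, cyclins, phosphatases and transcription factors) and 16 spindle genes (motors and microtubule-binding proteins). The 7 condensin genes were condensin subunits, with topoisomerase II alpha and Ki-67. The 5 exit genes were activators and the ubiquitin-conjugating enzyme of the anaphase-promoting complex, with securin and the separase it inhibits. The remaining 9 were cytokinesis genes. The roles are groupings by main known function, and several of the proteins act in more than 1 of them.

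Messenger RNA was counted in epithelial cells from the small intestinal crypts of 6 male Lgr5-EGFP mice, C57BL/6 littermates in which EGFP reports on the stem cell gene Lgr5. NRG1 (neuregulin 1, an EGF-family growth factor that binds the receptors ErbB3 and ErbB4) was given to 3 mice at 7.5 µg intraperitoneally every 12 h for 5 days, and the other 3 mice received the PBS vehicle on the same schedule, with collection on day 6. In each treatment the age was 15 weeks for replicates 1 and 2 and 11 weeks for replicate 3. Live crypt cells without CD31 or CD45 on their surface were gated on EGFP and CD24, which gave 4 populations that the labels name as crypt base columnar stem cells (Lgr5high), immediate progenitors (Lgr5med), subsequent progenitors (Lgr5low) and differentiated cells (Lgr5neg). Each mouse gave 1 library for each population, so the 24 libraries form 8 groups of 3, and the 4 comparisons of NRG1 with PBS rest on the same 6 mice. All groups carry the reporter.

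Entry into mitosis is driven by the kinase Cdk1 bound to a B-type cyclin, which Cdc25 phosphatases switch on and the kinases Plk1 and Aurora A help to activate. Anaphase begins when the anaphase-promoting complex, with Cdc20 and the ubiquitin-conjugating enzyme Ube2c, marks securin and cyclin B for destruction, and cytokinesis follows through the central spindle and the contractile ring. Most of these genes are transcribed late in the cell cycle under the DREAM complex, B-Myb and FoxM1, and their promoters often hold a cell cycle homology region (CHR) near the start site with CCAAT boxes upstream. In the intestine, stem cells and transit-amplifying progenitors of the crypt divide, whereas differentiated cells have left the cycle.

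Promoter sequence was matched for 43 of the 51 genes, in 46 windows of 300 bases (250 before to 50 after a RefSeq start, GRCm38.p6). Ccna2, Cdc25c, Bora, Foxm1, Tpx2, Dlgap5, Smc4 and Kif20a had no entry. TTTGAA, the most common form of the CHR core, was present on either strand in 71.7% of the members' windows and in 17.9% of all 32851 promoter windows of that length. CCAAT was present on either strand in 76.1% of the members' windows against 37.4% of all windows, and at least 2 matches to it in 45.7% against 11.7%. Both words together occurred in 63.0% against 6.95%. TTTAAA, another form of the CHR core, occurred in 17.4% against 13.2%, and any of 4 E2F words (TTTCCCGC, TTTCGCGC, TTTGCCGC and TTTGGCGC) in 10.9% against 2.26%. Each word was counted by itself on both strands. A match is a description of the letters and was not tested as a site of binding.

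The stretches printed here run from 110 bases before to 40 bases after the start, 5′ to 3′ on the strand of the gene, for genes at the extremes of the results. Capitals mark TTTGAA or CCAAT, or the reverse complements TTCAAA and ATTGG. Cdc20, Ube2c and Aspm had the highest differences of the exit and spindle genes after NRG1 in Lgr5high cells, and Cdk1 is the central kinase.
Cdc20 (chr4:118437304-118437453, minus strand): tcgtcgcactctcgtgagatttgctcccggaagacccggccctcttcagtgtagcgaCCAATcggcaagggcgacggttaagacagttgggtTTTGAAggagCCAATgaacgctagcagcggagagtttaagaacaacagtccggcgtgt
Ube2c (chr2:164769819-164769968, plus strand): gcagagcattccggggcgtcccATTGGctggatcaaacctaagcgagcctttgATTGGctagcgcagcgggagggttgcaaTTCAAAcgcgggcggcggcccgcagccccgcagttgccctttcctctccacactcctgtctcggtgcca
Aspm (chr1:139454663-139454812, plus strand): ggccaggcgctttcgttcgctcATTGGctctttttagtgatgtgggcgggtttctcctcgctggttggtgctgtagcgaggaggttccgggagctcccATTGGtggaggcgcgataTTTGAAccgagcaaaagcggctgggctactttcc
Cdk1 (chr10:69352873-69353022, minus strand): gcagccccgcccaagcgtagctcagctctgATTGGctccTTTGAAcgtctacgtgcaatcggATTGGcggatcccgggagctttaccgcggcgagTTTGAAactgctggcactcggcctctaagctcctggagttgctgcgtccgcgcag
Kif20b was the cytokinesis gene called in 3 populations, and its TTTGAA matches stand side by side without a CCAAT. Ccnb1 has CCAAT but no TTTGAA, and it holds TTTAAA at position -42 from the start.
Kif20b (chr19:34922248-34922397, plus strand): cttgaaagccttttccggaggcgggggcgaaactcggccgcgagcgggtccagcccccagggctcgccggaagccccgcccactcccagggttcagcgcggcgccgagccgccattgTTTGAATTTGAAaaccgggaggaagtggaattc
Ccnb1 (chr13:100786447-100786596, minus strand): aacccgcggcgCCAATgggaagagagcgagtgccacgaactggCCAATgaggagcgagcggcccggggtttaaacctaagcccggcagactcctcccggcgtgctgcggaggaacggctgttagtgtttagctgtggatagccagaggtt
Mybl2 was the gene called against the direction of the rest, and Fzr1 and Pttg1 were those not called between Lgr5low and Lgr5neg cells. None of these windows holds TTTGAA, and Fzr1 alone of them holds a CCAAT, at position -79. The RefSeq start used for Pttg1 lies 270 bases inside the gene as GENCODE vM21 draws it, and so do those of Kif2c, Kif14, Cit and Kif4, by 3867, 1505, 378 and 328 bases. Without these 5 windows TTTGAA was present in 73.2% and CCAAT in 80.5% of the remaining 41.
Mybl2 (chr2:163054525-163054674, plus strand): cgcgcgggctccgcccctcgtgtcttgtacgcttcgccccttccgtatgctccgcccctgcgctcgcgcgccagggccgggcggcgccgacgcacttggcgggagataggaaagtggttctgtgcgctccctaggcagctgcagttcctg
Fzr1 (chr10:81378331-81378480, minus strand): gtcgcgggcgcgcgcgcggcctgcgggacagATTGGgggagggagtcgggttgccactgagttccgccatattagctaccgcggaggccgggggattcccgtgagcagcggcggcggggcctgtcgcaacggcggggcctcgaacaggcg
Pttg1 (chr11:43425942-43426091, minus strand): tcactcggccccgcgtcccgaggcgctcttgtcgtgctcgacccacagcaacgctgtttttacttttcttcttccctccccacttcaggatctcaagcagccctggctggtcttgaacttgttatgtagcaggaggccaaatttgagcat

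Total counts per library lay between 11176264 and 23343499, of which the 2 mitochondrial ribosomal RNAs took 37.6% to 62.4%. The upper limit for a gene at 0, set at 3 counts, came to 0.112 to 0.247 CPM (counts relative to the library total, scaled by TMM over all 24 libraries). The lowest totals were those of Lgr5low NRG1 replicates 1 and 3, at 11176264 and 12549951. Stem cell markers summed to 3612 to 5075 CPM in Lgr5high PBS libraries and to 83.6 to 94.8 CPM in Lgr5neg PBS libraries. Enterocyte markers summed to 936 to 1407 and 43606 to 73929 CPM, and both lists went in the order the gates' labels give. Markers of secretory cells did not follow that order in PBS libraries. Goblet sums were 365 to 1748 CPM in Lgr5high, 5474 to 15560 in Lgr5med, 13918 to 25548 in Lgr5low and 4815 to 6802 in Lgr5neg. Paneth sums were 886 to 4429 CPM in Lgr5low and 291 to 649 in Lgr5neg, and enteroendocrine sums 268 to 1131 and 39.2 to 179. The part of these cell types in the steps between populations was not tested. Immune markers, 9 genes, summed to at most 5.50 CPM in the 3 EGFP-bearing populations but to 51.5 to 424 CPM in Lgr5neg libraries. Reads of mt-Rnr1 per 100 of mt-Rnr2 were 38 to 54.2 in NRG1 libraries and 18.1 to 42.9 in PBS libraries, with Lgr5high PBS replicate 3 the PBS library inside the NRG1 range. With both RNAs left out, the numbers of members called higher and lower were the same in 9 of 10 comparisons, and in the other, NRG1 in Lgr5med cells, 18 were called in place of 17. In sorted bulk cells, fewer cells in mitosis and less RNA of a gene per cell cannot be told apart.

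In PBS mice the summed level of the mitotic genes stepped down without overlap across the 3 EGFP-bearing populations, from 3906 to 4332 CPM in Lgr5high to 3482 to 3742 in Lgr5med and 2822 to 3359 in Lgr5low cells, and was far lower in Lgr5neg cells. Lgr5high was not tested against Lgr5low. The means of the sums were 4114 ± 213 CPM (SD, n = 3) in Lgr5high, 3600 ± 132 in Lgr5med, 3075 ± 270 in Lgr5low and 264 ± 21.6 in Lgr5neg cells. By role, only the condensin genes had sums without overlap at both steps between EGFP-bearing populations, at 1949 to 2139, 1622 to 1718 and 1325 to 1497 CPM. Entry genes summed to 471 to 559 CPM in Lgr5high and 503 to 553 in Lgr5med cells. Exit genes summed to 220 to 275 and 229 to 263 CPM. Per kilobase of exonic length, the highest levels in Lgr5high PBS cells were those of Mki67 (Ki-67, which coats mitotic chromosomes) at 91.1 CPM per kb, Ube2c at 69.6, Smc4 (a condensin ATPase) at 61.2, Top2a (topoisomerase II alpha) at 57.3 and Ccnb2 (cyclin B2) at 46.1. The lowest were Kifc1 (a minus-end motor) at 0.958, Cdc25c at 1.67, Kif18a at 1.69 and Fzr1 at 2.27 CPM per kb. Among the highest, Mki67 at 841 to 971 CPM in Lgr5high did not overlap its range in Lgr5med, 746 to 814 CPM, but the difference was not called. The levels per kilobase carry no test between genes.

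**Figure D1:**
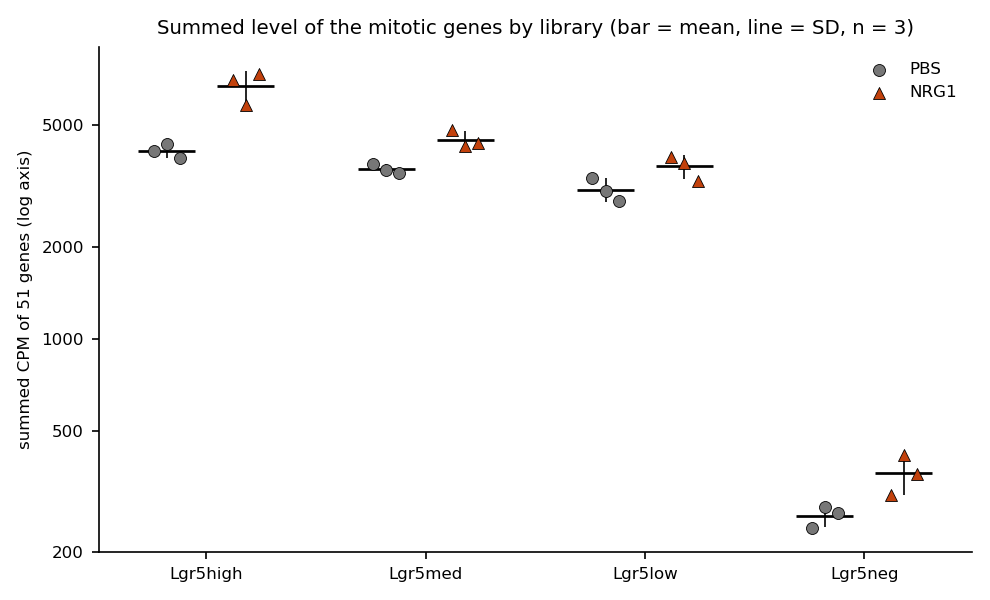
Summed CPM of the 51 mitotic genes in each of the 24 libraries (log axis), by population, with PBS as circles and NRG1 as triangles; the bar is the mean and the line the SD of 3 libraries. The Lgr5high NRG1 libraries span 5804 to 7323 CPM, above the PBS libraries at 3906 to 4332 CPM, and all 6 Lgr5neg libraries lie at or under 418 CPM.

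The steps between neighbouring PBS populations share groups and mice, so their values are set side by side and not counted together. Calls required an adjusted p under 0.05 in edgeR's quasi-likelihood test with Benjamini-Hochberg adjustment over all genes tested, the source of every adjusted p here unless another tool is named. From Lgr5med to Lgr5high, 0 of the 51 genes were called, against 2.44% of 14203 genes called higher and 6.72% called lower. The members' median log2 difference was 0.14, and that of all genes 0.00. At an unadjusted p under 0.05 there were 6 members, all higher in Lgr5high, beside 21.5% of all genes in either direction. The groups did not overlap for 15 members upward and 1 downward, against 13.8% and 16.4% of all genes.

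By role, the medians of that step were -0.03 for entry, 0.15 for spindle, 0.26 for condensin, 0.07 for exit and 0.18 for cytokinesis genes. The smallest adjusted p belonged to Kif15, a plus-end spindle motor, whose PBS libraries read 99.4, 106 and 88.4 CPM in Lgr5high and 79.3, 75.4 and 60.6 CPM in Lgr5med cells (log2 difference 0.45 ± 0.152 SE, adjusted p = 0.0731). The groups of Kif15 did not overlap. Top2a, which untangles chromosomes, read 505, 550 and 495 CPM against 381, 396 and 366 CPM (0.44 ± 0.157, adjusted p = 0.0891). With the mouse as a replicate block these 2 genes were called, and DESeq2 called 3 (Kif15, Aspm and Top2a). The condensin genes lay between 0.22 (Smc4) and 0.44 (Top2a) and the groups of 5 of the 7 did not overlap. The other extremes were Cdc25c at -0.25 and Ccnb1 at 0.20 among entry genes, Kif22 at -0.23 among spindle genes, Fzr1 at -0.29 and Espl1 at 0.15 among exit genes, and Kif14 at -0.03 and Ect2 at 0.38 among cytokinesis genes.

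From Lgr5low to Lgr5med, again 0 of 51 were called, against 2.00% of all genes called higher and 5.59% lower, and the members' median was 0.21 (all genes -0.00). At an unadjusted p under 0.05 there were 9 members, all higher in Lgr5med, beside 20.9% of all genes, and the groups did not overlap for 14 upward and 0 downward, against 13.7% and 14.9% of all genes. Kif2c, a kinesin that takes microtubule ends apart, had the smallest adjusted p. It read 17.1, 19.8 and 19.5 CPM in Lgr5med and 14.4, 12.3 and 11.4 CPM in Lgr5low PBS libraries (log2 difference 0.56 ± 0.173, adjusted p = 0.0530), and the groups did not overlap. With the mouse as a replicate block Kif2c, Kif20b and Kif14 were called, and DESeq2 called 3 (Kif2c, Smc4 and Kif20b). The largest differences by role were those of Cdk1 at 0.30, Kif2c at 0.56, Ncapd2 at 0.40, Espl1 at 0.37 and Kif14 at 0.53, and the smallest those of Foxm1 at -0.02, Ckap2l at -0.13, Smc2 at 0.14, Fzr1 at -0.09 and Anln at 0.02.

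Between Lgr5low and Lgr5neg, 49 of the 51 genes were called higher in Lgr5low cells and 0 lower, in a step where 30.6% of all genes were called higher and 25.3% lower. The groups did not overlap for 49 genes upward and 1 downward, against 32.8% and 26.7% of all genes. The members' median log2 difference was 3.73, a 13.3-fold difference, and that of all genes was 0.11. The medians by role lay between 3.55 (exit) and 4.09 (spindle), so no role kept its level as a group. Foxm1, the transcription factor of late cell cycle genes, read 62.9, 43.2 and 39.8 CPM in Lgr5low and 1.50, 2.57 and 1.65 CPM in Lgr5neg PBS libraries (4.66 ± 0.221, adjusted p = 5.47e-12). Kifc1 had the largest fitted difference, 5.42, but with 0 to 2 counts in the Lgr5neg libraries that value depends on the fit. Smc4 was the called gene with the smallest difference: 230, 215 and 189 CPM in Lgr5low and 39.4, 35.6 and 43.9 CPM in Lgr5neg cells (2.40 ± 0.149, adjusted p = 1.55e-10). The lowest differences of the other roles were Ccnb2 at 2.68, Kif22 at 2.88 and Kif23 at 2.65, and the highest Top2a at 4.48, Espl1 at 4.29 and Kif14 at 4.16.

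The 2 genes outside the call both belong to the exit group. Fzr1 (Cdh1, the activator that keeps the anaphase-promoting complex on in G1 and in cells out of cycle) read 16.9, 13.3 and 9.57 CPM in Lgr5low and 14.3, 14.1 and 9.21 CPM in Lgr5neg PBS libraries (log2 difference 0.07 ± 0.217, adjusted p = 0.801). Pttg1 (securin, the inhibitor of separase) read 8.37, 11.3 and 7.61 CPM in Lgr5low and 14.7, 12.0 and 11.8 CPM in Lgr5neg libraries (-0.51 ± 0.235, adjusted p = 0.0742). Each Lgr5neg library was above each Lgr5low library for Pttg1, whereas the Fzr1 groups overlapped. Immune markers summed to 2.46 to 3.63 CPM in Lgr5low and 86.4 to 193 CPM in Lgr5neg PBS libraries. All 9 were called higher in Lgr5neg cells, beside 25.3% of all genes. The part of immune cells in the levels of Fzr1 and Pttg1 was not tested. Pttg1 was called lower in Lgr5low cells with the mouse as a replicate block, with RLE size factors and without Lgr5high PBS replicate 2 or 3 or Lgr5low PBS replicate 2. Espl1, the separase that Pttg1 holds in check, went the other way, from 22.5, 14.0 and 12.2 CPM in Lgr5low to 0.674, 1.29 and 0.494 CPM in Lgr5neg cells (4.29 ± 0.337, adjusted p = 5.98e-09).

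**Figure D2:**
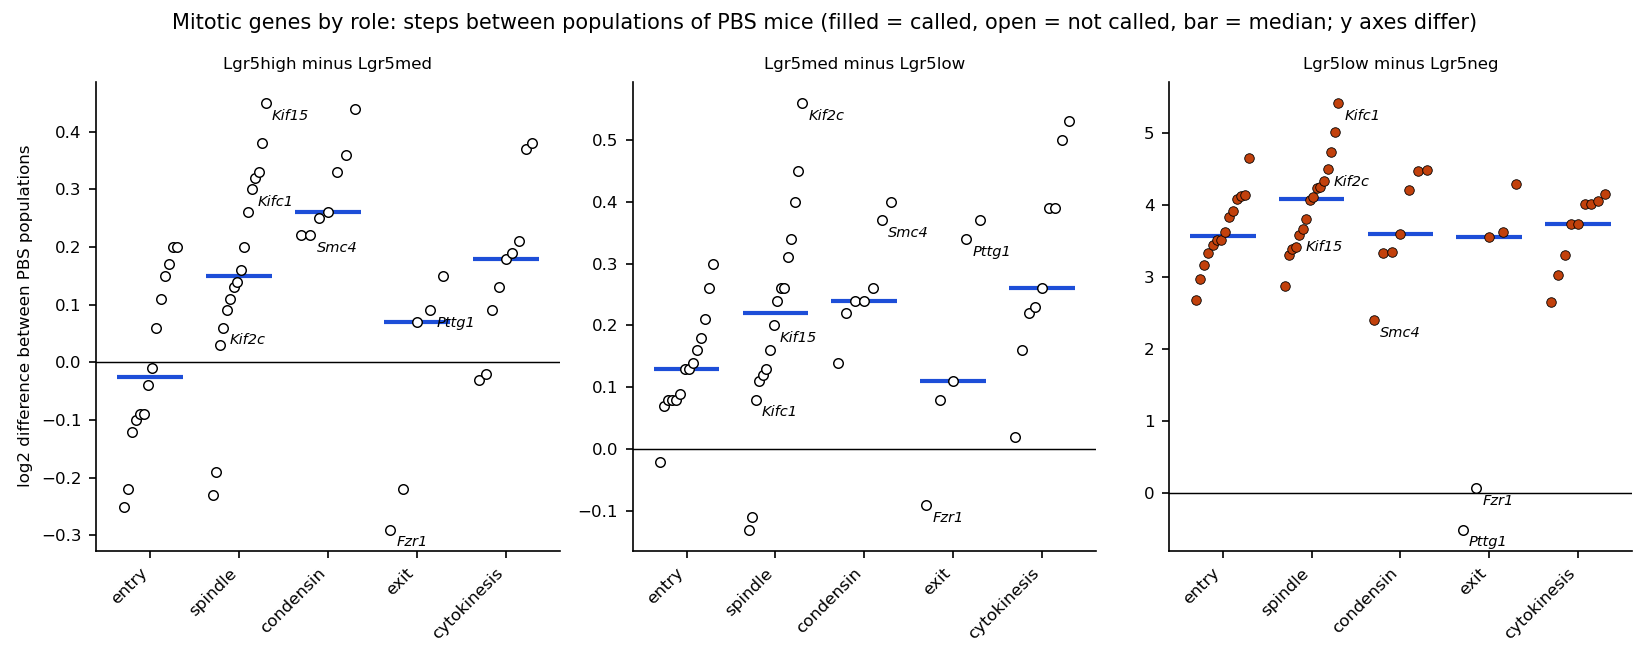
Log2 difference of each of the 51 genes at the 3 steps between neighbouring PBS populations, grouped by role on the horizontal axis; filled points passed an adjusted p under 0.05, open points did not, and the blue bar is the median of the role. The vertical axes differ: all points of the first 2 steps lie between -0.29 and 0.56, while 49 of 51 points of the last step lie at 2.40 or above and Fzr1 and Pttg1 lie near or below 0.

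In Lgr5high stem cells, NRG1 raised most of the mitotic genes: 44 of the 51 were called higher and 1 lower, where 3.18% of 13322 genes were called higher and 4.15% lower. The median log2 difference of the members was 0.75 (1.68-fold), with 0.01 for all genes tested. The groups of 3 libraries did not overlap for 47 genes in the upward and 1 in the downward direction, against 12.9% and 14.0% of all genes. Their summed level was 3906 to 4332 CPM in PBS libraries and 5804 to 7323 CPM in NRG1 libraries. Called higher were 12 of 14 entry genes (median 0.72), 14 of 16 spindle genes (0.87), 5 of 7 condensin genes (0.47), 4 of 5 exit genes (0.93) and all 9 cytokinesis genes (0.82). The medians of the roles were not tested against each other.

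**Figure D3:**
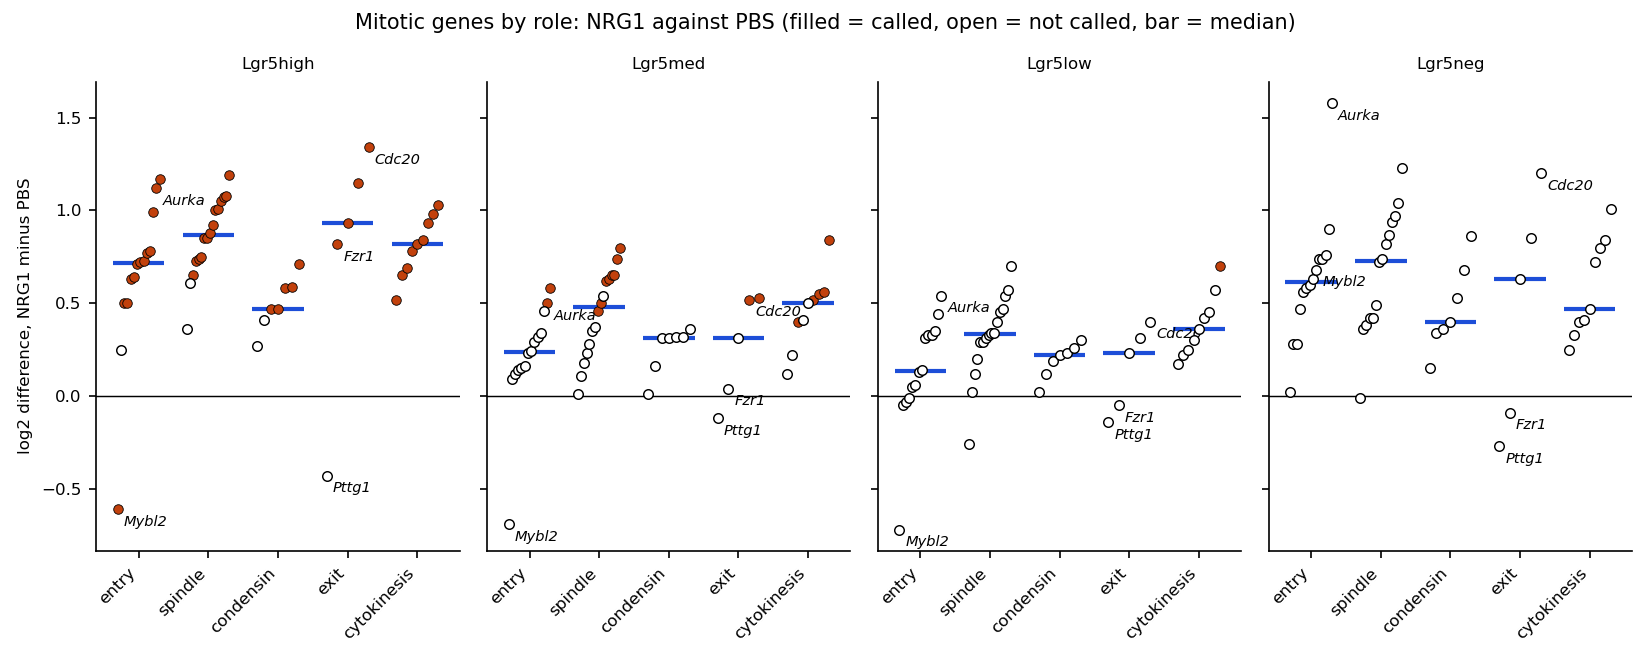
Log2 difference of NRG1 minus PBS for each mitotic gene in the 4 populations, grouped by role; filled points passed an adjusted p under 0.05, open points did not, and the blue bar is the median of the role. In Lgr5high cells 44 filled points lie above 0 and Mybl2 at -0.61 below it; 17 are filled in Lgr5med, 1 in Lgr5low and 0 in Lgr5neg cells, where Kif2c and Kifc1 were not tested.

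Among the entry genes, Cdk1, the kinase itself, read 34.0, 39.5 and 35.5 CPM in the PBS and 60.1, 48.6 and 59.8 CPM in the NRG1 libraries of Lgr5high cells (log2 difference 0.64 ± 0.122 SE, adjusted p = 0.00476). Its partners rose as well. Ccnb1 (cyclin B1) went from 29.5, 32.1 and 29.7 to 53.4, 45.6 and 56.4 CPM (0.78 ± 0.119, adjusted p = 0.00112). Ccnb2 went from 79.1, 74.6 and 58.0 to 113, 105 and 129 CPM (0.73 ± 0.130, adjusted p = 0.00302). The 3 NRG1 values were above the 3 PBS values for each of these genes.

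The phosphatases that activate Cdk1 also rose. Cdc25c, the member that acts at the onset of mitosis, had the largest difference of the entry genes, from 8.43, 8.79 and 7.48 to 18.2, 18.1 and 19.0 CPM (1.17 ± 0.146, adjusted p = 0.000290). Cdc25b, which acts earlier at the centrosome, went from 13.7, 14.0 and 9.88 to 26.1, 17.5 and 20.1 CPM (0.77 ± 0.174, adjusted p = 0.0141). The groups of both genes stood apart, with more spread in Cdc25b, whose call was lost in 3 of 14 alternative fits.

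Of the kinase module, Aurka (Aurora A) rose from 20.6, 26.2 and 23.6 to 55.2, 43.1 and 53.1 CPM (1.12 ± 0.133, adjusted p = 0.000229). Plk1 (Polo-like kinase 1) rose from 42.8, 42.7 and 39.7 to 88.8, 64.9 and 93.5 CPM (0.99 ± 0.132, adjusted p = 0.000401). Bora, the cofactor through which Aurora A activates Plk1, rose less, from 19.6, 23.0 and 19.0 to 27.2, 28.0 and 31.0 CPM (0.50 ± 0.130, adjusted p = 0.0279). No PBS library reached any NRG1 library in these 3 genes. Ccna2 (cyclin A2) rose by a similar amount to Bora, 0.50 ± 0.138 (adjusted p = 0.0366), and the calls of both were lost in 7 alternative fits. Ccnf (an F-box protein) at 0.72 and Nek2 (a centrosome kinase) at 0.71 were also called, and Melk (a kinase of proliferating cells) at 0.25 was not (adjusted p = 0.271).

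The 2 transcription factors of the late cell cycle programme moved in opposite directions. Foxm1 rose from 56.7, 49.5 and 52.7 CPM in PBS to 82.4, 70.1 and 91.6 CPM in NRG1 libraries (0.63 ± 0.120, adjusted p = 0.00495). Mybl2 (B-Myb) fell from 10.1, 11.6 and 12.1 to 6.25, 7.27 and 8.36 CPM (-0.61 ± 0.173, adjusted p = 0.0402). Every NRG1 library was below every PBS library for Mybl2, the gene among the 51 that was called lower. The direction of Mybl2 was the same at both ages, -0.68 at 15 weeks and -0.53 at 11 weeks. Its call was lost in 6 alternative fits, among them those without PBS replicate 2 or 3 or NRG1 replicate 1 or 2, where adjusted p over all alternatives lay between 0.0150 and 0.186.

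Spindle genes rose in Lgr5high cells. Aspm, which gathers microtubule minus ends at the spindle pole, went from 76.1, 81.5 and 67.9 to 176, 151 and 185 CPM (1.19 ± 0.119, adjusted p = 9.11e-05). Tpx2, which activates Aurora A on the spindle, went from 71.4, 83.5 and 66.7 to 155, 126 and 162 CPM (1.01 ± 0.126, adjusted p = 0.000290). For both genes the lowest NRG1 library was above the highest PBS library. Ckap2l at 1.08, Dlgap5 at 1.07 and Hmmr at 1.05, other microtubule-binding proteins of the spindle, were close to them, with adjusted p of 0.000143, 0.000229 and 0.000228.

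Of the motors, Kif11 (Eg5, which pushes the poles apart) rose from 172, 150 and 150 to 264, 220 and 295 CPM (0.74 ± 0.126, adjusted p = 0.00237). Kif2c rose from 22.0, 20.2 and 16.6 to 37.2, 35.2 and 43.7 CPM (1.00 ± 0.139, adjusted p = 0.000507). Kif22, a chromokinesin that pushes chromosome arms from the poles, rose from 22.2, 27.0 and 17.2 to 42.5, 30.9 and 37.5 CPM (0.75 ± 0.163, adjusted p = 0.0115). The groups did not overlap in the 3 genes, and the gap was smallest in Kif22, whose call was lost in 3 alternative fits. Kif4, Kif18a and Kif18b, motors that act on chromosome alignment, were called at 0.73, 0.85 and 0.92, and Nusap1, Ckap2 and Gtse1 at 0.88, 0.85 and 0.65. The 2 spindle genes that were not called were Kif15, at 0.36 ± 0.117 (adjusted p = 0.0745), and Kifc1, at 0.61 ± 0.241 (adjusted p = 0.134), though their groups did not overlap.

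Condensin genes had the lowest median of the 5 roles, 0.47. Mki67 had the largest difference, from 841, 937 and 971 to 1667, 1248 and 1549 CPM (0.71 ± 0.135, adjusted p = 0.00452). Top2a went from 505, 550 and 495 to 837, 644 and 824 CPM (0.59 ± 0.128, adjusted p = 0.0109). No PBS library reached an NRG1 library in either gene, and NRG1 replicate 2 was the lowest NRG1 library in both. Among the condensin I subunits proper, Ncapd2 went from 91.8, 79.7 and 73.6 to 141, 96.9 and 124 CPM (0.58 ± 0.137, adjusted p = 0.0184), and Ncapg and Ncaph were each called at 0.47, with adjusted p of 0.0288 and 0.0257.

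The ATPase core of condensin was not called. Smc2 read 96.0, 116 and 89.6 CPM in PBS and 122, 106 and 133 CPM in NRG1 libraries (0.27 ± 0.125, adjusted p = 0.206). Smc4 read 320, 366 and 271 against 425, 380 and 456 CPM (0.41 ± 0.130, adjusted p = 0.0670). The Smc2 groups overlapped and the Smc4 groups did not, and Smc4 was called by DESeq2, without the filter on low counts and without PBS replicate 2. The 95% intervals of the log2 difference were 0.03 to 0.52 for Smc2 and 0.16 to 0.67 for Smc4. The calls of Ncapg, Ncapd2, Ncaph and Top2a were lost in 7, 5, 6 and 4 alternative fits and that of Mki67 only in the fit of all 24 libraries together.

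The exit genes held both the largest rise and a gene that did not rise. Cdc20, the activator of the anaphase-promoting complex, read 30.5, 21.2 and 24.1 CPM in PBS and 59.8, 60.7 and 69.6 CPM in NRG1 libraries (1.34 ± 0.140, adjusted p = 9.11e-05), a 2.53-fold difference. Ube2c, its ubiquitin-conjugating enzyme, read 199, 185 and 159 against 334, 339 and 520 CPM (1.15 ± 0.164, adjusted p = 0.00114). In both genes the lowest NRG1 value was well clear of the highest PBS value, and for Ube2c the 11-week mouse was the highest, with a difference of 1.71 at 11 weeks and 0.81 at 15 weeks.

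Espl1 (separase) rose from 25.2, 26.5 and 18.4 to 42.7, 40.6 and 49.3 CPM (0.93 ± 0.144, adjusted p = 0.00119). Fzr1 rose from 8.98, 11.1 and 10.5 to 18.6, 15.5 and 19.6 CPM (0.82 ± 0.152, adjusted p = 0.00405). Pttg1 read 11.7, 16.9 and 8.03 CPM in PBS and 9.05, 9.73 and 8.28 CPM in NRG1 libraries (-0.43 ± 0.225, adjusted p = 0.286). Separase and the G1 activator of the complex were thus higher in each NRG1 library, whereas the groups of securin overlapped and PBS replicate 2 was its highest value. Without PBS replicate 3 Pttg1 was called lower, and over all alternatives its adjusted p lay between 0.0398 and 0.812.

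All 9 cytokinesis genes rose. Kif20b, a motor of the midzone and midbody, went from 52.6, 65.6 and 61.7 to 117, 108 and 140 CPM (1.03 ± 0.125, adjusted p = 0.000229), the largest difference of the group. Ect2, the exchange factor that activates RhoA at the division plane, went from 52.5, 40.0 and 49.1 to 91.4, 73.9 and 101 CPM (0.93 ± 0.136, adjusted p = 0.000815). Prc1, which bundles midzone microtubules, went from 54.6, 57.8 and 46.3 to 90.5, 80.1 and 108 CPM (0.82 ± 0.129, adjusted p = 0.00120). Neither Kif20b, Ect2 nor Prc1 had an NRG1 library within the PBS range.

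Kif23 (MKLP1) and Racgap1 together form centralspindlin. Kif23 had the smallest difference of the group, from 66.6, 81.4 and 59.9 to 102, 89.2 and 105 CPM (0.52 ± 0.125, adjusted p = 0.0182), and its partner Racgap1 was at 0.78 ± 0.110 (adjusted p = 0.000531). Anln (anillin, the scaffold of the contractile ring) went from 64.4, 63.9 and 57.5 to 107, 84.0 and 107 CPM (0.69 ± 0.119, adjusted p = 0.00239). Cit (citron kinase, of the midbody) went from 103, 110 and 76.5 to 150, 144 and 158 CPM (0.65 ± 0.132, adjusted p = 0.00658). Their groups did not overlap, and of the 9 genes Kif23 was the one whose call was lost in an alternative fit. Kif14 and Kif20a, other motors of the midzone, were called at 0.98 and 0.84.

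The Lgr5high NRG1 libraries did not stand level: replicate 2 was the lowest of the 3 for 44 of the 51 genes and replicate 3 the highest for 37. Leaving out 1 library at a time left 34 to 41 genes called higher, with 34 without NRG1 replicate 3. Within ages, the members' median was 0.66 in the 15-week and 1.01 in the 11-week mice, the latter with 1 library per treatment. Paneth markers moved with treatment in this gate: 2 of 6 were called lower (Defa17 and Defa24), with summed levels of 1822 to 3176 CPM in PBS and 1136 to 1871 CPM in NRG1 libraries and none of the 6 at 0. The calls of Defa17 and Defa24 were lost in 1 and 4 of 14 alternative fits. Goblet markers (median log2 difference -0.66) summed to 365 to 1748 CPM in PBS and 379 to 894 CPM in NRG1 libraries. Enteroendocrine markers (-1.76 over the 4 tested) summed to 23.8 to 141 and 13.2 to 34.5 CPM, and 0 were called in either list. The part of these lists in the result was not tested. Endothelial markers summed to at most 0.592 CPM and mesenchymal markers to at most 0.272 CPM in these 6 libraries.

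**Figure D4:**
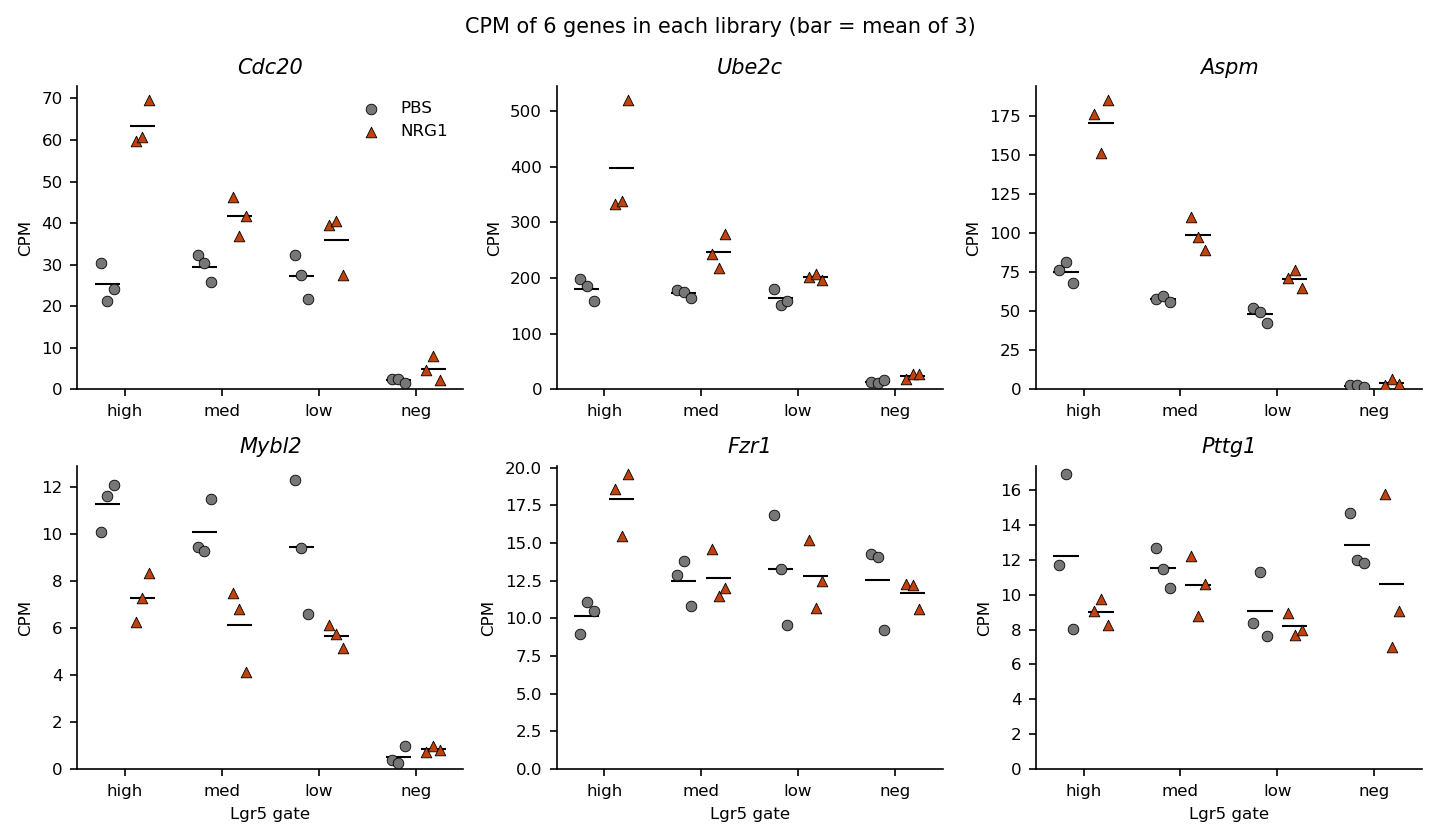
CPM of Cdc20, Ube2c, Aspm, Mybl2, Fzr1 and Pttg1 in every library, by Lgr5 gate, with PBS as circles, NRG1 as triangles and the mean of 3 as a bar. In the high gate the NRG1 libraries lie above PBS for Cdc20, Ube2c, Aspm and Fzr1 and below it for Mybl2. In the neg gate Fzr1 and Pttg1 lie at 7.03 to 15.8 CPM and Ube2c at 11.7 to 28.1 CPM. Cdc20, Aspm and Mybl2 lie at 8.02 CPM or less there.

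In Lgr5med cells 17 of the 51 genes rose after NRG1 and 0 were called lower, where 3.76% of 13394 genes were called higher and 5.79% lower. All 17 were also among the 44 of Lgr5high cells, in a comparison on the same mice. The median log2 difference was 0.32, with 0.01 for all genes, and the groups did not overlap for 30 genes upward and 1 downward, against 13.8% and 16.7% of all genes. Called were 2 of 14 entry genes (median 0.23), 8 of 16 spindle genes (0.48), 0 of 7 condensin genes (0.31), 2 of 5 exit genes (0.31) and 5 of 9 cytokinesis genes (0.50). Summed CPM was 3600 ± 132 (SD, n = 3) in PBS and 4483 ± 281 in NRG1 libraries.

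Ect2 had the largest difference, from 39.4, 31.6 and 38.0 to 60.5, 54.5 and 77.9 CPM (0.84 ± 0.147, adjusted p = 0.00386). Aspm had the smallest adjusted p, from 58.0, 59.7 and 55.7 to 110, 97.8 and 89.2 CPM (0.80 ± 0.117, adjusted p = 0.00142). Each NRG1 library was above each PBS library in both genes. Ckap2l at 0.74, Dlgap5 and Hmmr at 0.65 each, Kif18a at 0.63, Ckap2 at 0.62, Nusap1 at 0.50 and Tpx2 at 0.46 were the other spindle genes called. Kif20b at 0.56, Prc1 at 0.55, Racgap1 at 0.52 and Cit at 0.40 completed the cytokinesis genes.

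Of the entry genes, Ccnb1 rose from 25.5, 29.8 and 24.3 to 42.0, 34.8 and 40.9 CPM (0.58 ± 0.134, adjusted p = 0.0155) and Aurka was called at 0.50 ± 0.141 (adjusted p = 0.0387). Of the exit genes, Cdc20 went from 32.3, 30.4 and 25.7 to 46.4, 36.9 and 41.8 CPM (0.52 ± 0.136, adjusted p = 0.0283). Ube2c went from 179, 175 and 165 to 243, 218 and 280 CPM (0.53 ± 0.129, adjusted p = 0.0202). These groups did not overlap, whereas Fzr1, Pttg1 and Espl1 overlapped, at 0.04, -0.12 and 0.31. Mybl2 read 9.46, 9.30 and 11.5 CPM in PBS and 7.48, 6.82 and 4.11 CPM in NRG1 libraries (-0.69 ± 0.224, adjusted p = 0.0662), with every NRG1 library below PBS. The smallest differences of the other roles were Kif22 at 0.01, Smc4 at 0.01 and Kif23 at 0.12, and the largest condensin difference was Ncapg at 0.36 (adjusted p = 0.0765).

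The number called in Lgr5med cells depended on single libraries: it was 6 without PBS replicate 3 and 10 without PBS replicate 2, and 9 in the fit of all 24 libraries. The calls of Aspm, Ckap2l, Kif20b and Ect2 held in every alternative fit, and each other call was lost in at least 1. Among fits with 1 library left out, Aurka was called only without NRG1 replicate 3 and Cit only without PBS replicate 1. The members' medians were 0.29 at 15 weeks and 0.35 at 11 weeks. Enterocyte markers moved with treatment, with 3 of 11 called lower (Fabp1, Alpi and Fabp2) and summed levels of 1892 to 2321 CPM in PBS and 1008 to 1654 CPM in NRG1 libraries. Stem cell markers summed to 1290 to 2340 CPM in PBS and 2289 to 2808 CPM in NRG1 libraries, with 1 of 8 called higher (Rgmb). The calls of Fabp1, Alpi, Fabp2 and Rgmb were lost in 1, 2, 5 and 6 of 14 alternative fits. Goblet markers (median log2 difference -0.82) summed to 5474 to 15560 CPM in PBS and 4464 to 10535 CPM in NRG1 libraries. Enteroendocrine markers (-0.47) summed to 217 to 552 and 97.1 to 305 CPM, and 0 of 6 were called in each of these lists. No marker of the lists named here was at 0, and their part in the result was not tested.

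In Lgr5low cells 1 of the 51 genes was called, Kif20b, in a comparison where 0.143% of 13326 genes were called higher and 0.300% lower. It went from 40.0, 41.9 and 46.7 CPM in PBS to 64.1, 75.3 and 68.0 CPM in NRG1 libraries (0.70 ± 0.133, adjusted p = 0.0420), with no overlap. The call was lost without any 1 of PBS replicates 1, 2 and 3 and NRG1 replicates 2 and 3. The members' median was 0.29 (all genes -0.00), and 44 of the 51 differences were above 0. At an unadjusted p under 0.05 there were 17 members, 16 of them higher, beside 13.5% of all genes, and the groups did not overlap for 17 upward and 1 downward, against 9.00% and 9.69% of all genes.

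Dlgap5, a microtubule-binding protein regulated by Aurora A, had a difference of 0.70 ± 0.158, from 31.4, 28.6 and 30.6 to 48.3, 58.1 and 39.7 CPM (adjusted p = 0.0744). Aspm read 52.3, 49.4 and 42.6 against 71.3, 76.4 and 64.7 CPM (0.57 ± 0.138, adjusted p = 0.102), and Aurka 23.5, 20.7 and 22.6 against 39.7, 27.3 and 29.8 CPM, a difference of 0.54. These groups did not overlap. Deviations of same-numbered PBS and NRG1 libraries correlated weakly in this gate, by 0.13 to 0.17. This pairing was read from the data, as the design matches the numbers only by age. A replicate block on that number gave 6 calls (Kif20b with Aurka, Hmmr, Dlgap5, Aspm and Kif14), while DESeq2 without a block called 3. Mybl2 had the lowest difference, -0.72, from 12.3, 9.41 and 6.58 to 6.15, 5.73 and 5.16 CPM, with every NRG1 library below PBS but no call. The largest differences of the remaining roles were Mki67 at 0.30 and Cdc20 at 0.40, and the lowest Kif18b at -0.26, Smc2 at 0.02, Pttg1 at -0.14 and Kif23 at 0.17. Stem cell markers moved with treatment in this gate: they summed to 610 to 651 CPM in PBS and 979 to 1470 CPM in NRG1 libraries, and 1 of 8 was called higher, Olfm4, at 1.16 ± 0.196 (adjusted p = 0.0369). The Olfm4 call was lost in 5 of 14 alternative fits. Enterocyte markers summed to 4706 to 7368 CPM in PBS and 2577 to 5522 CPM in NRG1 libraries, with 0 of 11 called. No marker of either list was at 0, and their part in these values was not tested.

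In Lgr5neg cells 49 genes passed the filter on low counts, all but Kif2c and Kifc1, and 0 of them were called in edgeR's test, where 0.151% of 11908 genes were called higher and 0.176% lower. At an unadjusted p under 0.05 there were 10, all higher, beside 10.6% of all genes. DESeq2 called 1 gene, Aurka, and edgeR with the replicate number as a block called 4 (Aurka, Hmmr, Mki67 and Ube2c). Deviations of same-numbered libraries correlated weakly in this gate, by 0.10 to 0.18. This pairing was read from the data, as the design matches the numbers only by age. The median over the genes tested was 0.60 (all genes 0.01), and the groups did not overlap for 19 upward and 0 downward, against 7.94% and 7.99% of all genes.

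Aurka had the largest difference, from 1.42, 1.45 and 1.48 CPM in PBS (18 to 19 counts) to 4.60, 5.06 and 3.32 CPM in NRG1 libraries (44 to 77 counts), at 1.58 ± 0.373 (adjusted p = 0.108). Ube2c went from 12.8, 11.7 and 16.9 to 18.1, 28.1 and 27.9 CPM (0.85 ± 0.220, adjusted p = 0.146). Both had groups that did not overlap. Cdc20 read 2.40, 2.57 and 1.56 CPM in PBS and 4.68, 8.02 and 2.19 CPM in NRG1 libraries, a difference of 1.20 with overlap. Fzr1 and Pttg1, the exit genes not called between Lgr5low and Lgr5neg cells, were at -0.09 and -0.27. The largest differences of the other roles were Ckap2l at 1.23, Ncaph at 0.86 and Ect2 at 1.01, and the smallest Bora at 0.02, Kif22 at -0.01, Smc4 at 0.15 and Cit at 0.25. Of the genes not tested, Kif2c had 4 to 9 counts per library in PBS and 10 to 34 in NRG1 libraries, and Kifc1 0 to 2 and 2 to 5. Immune markers summed to 86.4 to 193 CPM in PBS and 51.5 to 424 CPM in NRG1 libraries of this gate. Enterocyte markers summed to 43606 to 73929 and 31149 to 47944 CPM. The groups of these 2 lists overlapped, whereas those of goblet and stem cell markers did not. Goblet markers summed to 4815 to 6802 CPM in PBS and 1216 to 3787 CPM in NRG1 libraries, with 0 of 6 called, and stem cell markers to 83.6 to 94.8 and 54.7 to 76.9 CPM, with 1 of the 6 tested called lower, Axin2, at -1.40 ± 0.164 (adjusted p = 0.00988). The Axin2 call was lost in 3 of 14 alternative fits. No marker of these 4 lists was at 0, and the part of none of them in these values was tested.

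The difference in the response to NRG1 between gates was tested with an interaction term in a fit of all 24 libraries, with the Lgr5high libraries shared by the 3 tests. In edgeR's test 0 of the 51 genes were called in any of them, and 0 with the mouse as a replicate block, where the smallest adjusted p was 0.456 for Lgr5med (Kif22), 0.354 for Lgr5low (Kif18b) and 0.0988 for Lgr5neg (Fzr1). For Lgr5med minus Lgr5high and Lgr5low minus Lgr5high, 0% of 15045 genes were called, and for Lgr5neg minus Lgr5high 0.0399% were called higher and 0.0133% lower. The members' median differences in response were -0.40, -0.45 and -0.15. At an unadjusted p under 0.05 there were 18 members for Lgr5med, 23 for Lgr5low and 4 for Lgr5neg, beside 3.83%, 4.49% and 8.66% of all genes. All 18 and all 23 were negative, a smaller response than in Lgr5high cells, and of the 4 for Lgr5neg 1 was positive. With the mouse block these were 22, 25 and 4, beside 5.82%, 6.45% and 10.9% of all genes, with the same signs.

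The largest shortfalls in Lgr5med cells were Cdc25c at -0.84 ± 0.313, Cdc20 at -0.82 ± 0.341, Kif22 at -0.75 ± 0.224, Kif14 at -0.58 ± 0.291 and Mki67 at -0.41 ± 0.329, 1 for each role. In Lgr5low cells they were Kif18b at -1.17 ± 0.290, Cdc25c at -1.11 ± 0.317, Cdc20 at -0.93 ± 0.342, Ect2 at -0.50 ± 0.229 and Mki67 at -0.40 ± 0.329. All had an adjusted p of 1.00. Within single mice, the log2 ratio of Lgr5high to Lgr5med CPM for Cdc20 was -0.08, -0.52 and -0.09 in the PBS mice and 0.37, 0.72 and 0.73 in the NRG1 mice, and for Kif22 it was -0.32, 0.00 and -0.43 in the PBS mice and 0.52, 0.27 and 0.77 in the NRG1 mice. Each NRG1 mouse was above each PBS mouse in both genes. Kif18b read 43.7, 32.7 and 25.5 CPM in Lgr5low PBS and 27.8, 29.0 and 28.0 CPM in Lgr5low NRG1 libraries, while in Lgr5high cells it went from 35.2, 32.2 and 34.6 to 67.1, 57.2 and 66.6 CPM. Without the filter on low counts Kif18b was called for Lgr5low. The smallest differences or those above 0 were Melk at -0.03 and 0.11, Kifc1 at -0.08 and -0.32, Pttg1 at 0.30 and 0.29, Ncapg at -0.12 and Smc2 at -0.25, and Ect2 at -0.09 and Kif20b at -0.33, for Lgr5med and Lgr5low in turn.

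For Lgr5neg cells the smallest adjusted p was that of Fzr1, at -0.91 ± 0.284 (adjusted p = 0.299). Mybl2 stood at 1.32 ± 0.511 and Kifc1 at 1.77 ± 0.892, both from few counts in that gate. The remaining extremes by role were Cdc25b at -0.48, Kif22 at -0.75, Smc4 at -0.25, Ncaph at 0.41, Pttg1 at 0.16, Kif20a at -0.49 and Ect2 at 0.10. A p that misses the threshold does not show that the gates responded alike.

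A list of 73 other mitosis genes was also read, 72 of them tested in Lgr5high cells. It held regulators of Cdk1, subunits of the anaphase-promoting complex, DREAM and E2F genes, and condensin II, spindle, centrosome, cohesin, cytokinesis and phosphatase genes. Its median response to NRG1 was 0.14 in Lgr5high cells. Of all genes, 3.18% were called higher and 4.15% lower there, and of the 72 genes 13 and 2. Called among them were Cep55, an abscission factor, at 0.88 ± 0.148 (adjusted p = 0.00196), Ckap5, a microtubule polymerase, at 0.77 ± 0.112 (adjusted p = 0.000752), Sass6, of the centriole cartwheel, at 0.77, Cdc27, a core subunit of the anaphase-promoting complex, at 0.66 and Knstrn, a kinetochore and spindle protein, at 0.64. Cdkn3 and Cks2, at 0.81 and 0.80, lost their calls in 7 and 9 alternative fits. Ensa, an inhibitor of the phosphatase PP2A-B55 at mitotic entry, was called lower at -0.70 ± 0.136 (adjusted p = 0.00532). In Lgr5med cells 14 of 72 were called higher and 2 lower (median 0.15), beside 3.76% and 5.79% of all genes. The 2 lower were Ensa at -0.71 and Arhgap11a at -0.66. The highest were Cks2 at 0.89, Cep55 at 0.76, Cdc14a at 0.69, Sass6 at 0.61, Cdc27 at 0.59 and Haus3 at 0.58. In that order their calls were lost in 5, 4, 2, 6, 2 and 8 of 14 alternative fits. In Lgr5low and Lgr5neg cells 0 were called. Of all genes, 0.143% were called higher and 0.300% lower in Lgr5low, and 0.151% and 0.176% in Lgr5neg cells. Between Lgr5low and Lgr5neg PBS cells 48 were higher in Lgr5low and 6 lower (median 0.99), beside 30.6% and 25.3% of all genes. The largest difference was that of Ncapg2, a condensin II subunit, at 4.85. From Lgr5med to Lgr5high 4 were higher (Haus4, Cdc14a, Pds5b and Wee1, at 0.59 to 0.69) and 1 lower (Cdc14b, at -0.63). Of all genes, 2.44% were higher and 6.72% lower in that step. From Lgr5low to Lgr5med 1 was higher, Wee1, the kinase that restrains Cdk1, at 0.80 ± 0.168 (adjusted p = 0.00573), beside 2.00% of all genes higher and 5.59% lower.

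Set against the promoter sequences, 28 of the 31 members with TTTGAA in a window and 9 of the 12 without were called higher in Lgr5high cells, with medians of 0.78 and 0.68. In Lgr5med cells these were 11 of 31 and 4 of 12, with medians of 0.36 and 0.23. The 12 without included Ccnb1, Nusap1 and Fzr1, which rose in Lgr5high cells, as well as Mybl2, Pttg1 and Melk, which were not called higher. Called and uncalled members stood in both groups, and no test was made of the difference. The comparison is limited, since 8 of the 51 members had no window and the starts used for Pttg1 and Cit lay inside the gene. Ccnb1 and Gtse1, of the group without TTTGAA, hold TTTAAA. Counts of some members may also hold reads of neighbours, since the strand setting of the counting was not given: 16 of the 51 share exonic bases with a gene on the opposite strand, and 7 share 10% or more of their length with another gene. These 7 are Ccna2, Cdc25c, Kif4, Ncapg, Ube2c, Kif20a and Prc1. For Ube2c the neighbour, Tnnc2, had 0 counts in all libraries. Kif20a shared 29.3% of its own exonic bases with Cdc23, which had more counts, 10932 against 5905. Ncapg shared 13.4% of its own with Lcorl, which also had more counts, 19145 against 12099.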

How the data were processed

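Messenger RNA was measured in 24 libraries, 3 mice per treatment and 4 sorted populations per mouse, built from 15 ng of RNA each with 76 nt single-end reads, as the labels' protocols give it. The authors aligned reads with STAR to GRCm38 and counted by featureCounts, per the submitters' processing notes; the sources used here do not give tool versions, annotation release or strand setting. Deposited values are raw counts per gene symbol, and no library was left out.

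Tests used the quasi-likelihood F-test of edgeR 4.0.16 (robust, TMM scaling, filter at minimum count 10 and minimum total 15) in R 4.3.3, with Benjamini-Hochberg adjustment over all genes tested and calls at an adjusted p under 0.05. NRG1 was compared with PBS on the 6 libraries of a population, the populations on the 12 PBS libraries in 1 model, and the responses as an interaction over all 24. A ± after a log2 difference is its standard error, n = 3 per group throughout. CPM values are scaled by TMM over all 24 libraries. The fit was tested on simulated data. Alternatives were DESeq2 1.42.0, RLE size factors, no filter, mitochondrial ribosomal RNA left out, a replicate block, age, 15-week mice, 1 model for all 24 libraries, the 6 libraries of a step, and each library left out. The 95% intervals of log2 differences come from the standard error of the fit, which rests on the spread between mice. They use the multiplier of a normal distribution, which takes no account of the few mice per group, so they may be too narrow. The limits at 0 counts cover counting error only.

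Populations of 1 mouse were paired by the mouse codes in the labels. Replicate numbers of NRG1 and PBS mice were taken as pairs where every same-numbered correlation of deviations passed 0.1: Lgr5low (0.13 to 0.17) and Lgr5neg (0.10 to 0.18). These correlations were weak. The design matches the numbers only by age, with replicate 3 the 11-week mouse in both treatments, and beyond that the pairs were drawn from these same data.

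The members and gene lists were chosen with earlier results of these data known. Of the members, the text gives values per library for 29 genes of central function in Lgr5high cells and, in each comparison, the largest and smallest difference of each role, every member called against the direction of most and the members that did not pass the filter; other mitosis genes and markers are named only where called, at most 8 per comparison and not in every comparison. Gene positions, lengths and overlaps are from GENCODE vM21 (GRCm38), and promoter sequence is from RefSeq (GRCm38.p6).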

Additional observations from a re-analysis of the deposited data

How the results depend on the processing

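In Lgr5high cells the number of genes called higher after NRG1 stayed between 34 and 45 over all alternatives (44 as reported), and that between Lgr5low and Lgr5neg PBS cells was 49 in each. The gene called lower in Lgr5high cells, Mybl2, was not called with the 15-week mice only (0) or with all 24 libraries in 1 model (0). In Lgr5med cells 5 were called higher with the 15-week mice only and 9 with all 24 libraries, and 1 was called lower (Mybl2) by DESeq2, without the filter on low counts, with the replicate block and with age as a covariate (1 each). In Lgr5low cells 3 were called by DESeq2, 3 without the filter, 6 with the replicate block, 3 with age and 0 with the 15-week mice. In Lgr5neg cells 1 was called by DESeq2, 2 without the filter, 4 with the replicate block and 9 with all 24 libraries. Between Lgr5high and Lgr5med PBS cells 3 were called by DESeq2, 2 without the filter, 2 with the replicate block (mouse) and 3 with only the 6 libraries of the step. Between Lgr5med and Lgr5low these were 3, 2, 3 and 3, and 1 with RLE size factors. Between Lgr5low and Lgr5neg 1 was called lower (Pttg1) with RLE size factors and 1 with the replicate block, and without the filter 1 gene responded less in Lgr5low than in Lgr5high cells (Kif18b). The causes were not tested.

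Leaving out each library in turn gave 34 to 41 genes higher and 0 to 1 lower in Lgr5high cells, 6 to 17 higher and 0 to 1 lower in Lgr5med, 0 to 1 higher in Lgr5low, 0 to 1 higher in Lgr5neg, 0 to 1 higher in the steps from Lgr5med to Lgr5high and from Lgr5low to Lgr5med, and 0 to 1 lower between Lgr5low and Lgr5neg. Among the single genes named, signs changed only for genes that were not called. With all 24 libraries Kif22 and Smc4 were each at -0.01 in Lgr5med, and with the 15-week mice Smc2 was at -0.00 in Lgr5low and Bora at -0.36 and Kif22 at 0.09 in Lgr5neg. With a library left out, the response ranged from -0.10 to 0.11 for Kif22 and -0.07 to 0.07 for Smc4 in Lgr5med, -0.09 to 0.11 for Smc2 and -0.26 to 0.05 for Pttg1 in Lgr5low, and -0.21 to 0.36 for Bora, -0.06 to 0.07 for Kif22 and -0.02 to 0.64 for Cit in Lgr5neg. The PBS steps ranged from -0.15 to 0.07 for Kif14 (Lgr5high minus Lgr5med) and, for Lgr5med minus Lgr5low, -0.15 to 0.20 for Foxm1, -0.23 to 0.04 for Ckap2l, -0.27 to 0.13 for Fzr1 and -0.07 to 0.11 for Anln. The differences in response from Lgr5high ranged from -0.13 to 0.03 for Melk, -0.28 to 0.09 for Kifc1, -0.00 to 0.53 for Pttg1 and -0.25 to 0.02 for Ect2 in Lgr5med, -0.02 to 0.28 for Melk and -0.02 to 0.51 for Pttg1 in Lgr5low, and -0.24 to 0.39 for Pttg1 and -0.12 to 0.32 for Ect2 in Lgr5neg.

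Counts of calls over all genes, on which the shares beside the members rest, moved by more than 1.5 times. By setting these were Lgr5high from 976 to 480 (all 24 libraries), Lgr5med from 1279 to 2333 (replicate block) and 425 (15-week mice), Lgr5low from 59 to between 11 and 573, Lgr5neg from 39 to between 0 and 839 after NRG1, and the Lgr5neg interaction from 8 to as many as 150, with 17 and 35 in place of 0 in the Lgr5med and Lgr5low interactions without the filter. With 1 library left out, the lowest counts were 491 in Lgr5high (without PBS replicate 2), 422 in Lgr5med (PBS replicate 3), 1 in Lgr5low (NRG1 replicate 2) and 0 in Lgr5neg (PBS replicate 1 or 3), and the highest in Lgr5neg was 90 (NRG1 replicate 1). The PBS steps fell from 1302 to 634 without Lgr5med replicate 3 (Lgr5high against Lgr5med) and from 1078 to 464 without Lgr5med replicate 1 (Lgr5med against Lgr5low), and the Lgr5neg interaction went to between 1 and 18. Same-numbered NRG1 and PBS libraries correlated by 0.07 to 0.23 in Lgr5high and 0.07 to 0.21 in Lgr5med cells. There 5 of 6 and 6 of 6 libraries correlated best with their own number. This is a hint from the data, as the design matches the numbers only by age. The replicate block gave 23 genes higher in Lgr5med cells and changed no other call count of members by more than 1.5 times than those given here. Counts in Lgr5neg libraries, which were not the shallowest, were few for some members, such as 18 to 77 per library for Aurka. Mki67, also not called there, had 291 to 544 in PBS and 366 to 1156 in NRG1 libraries. Whether the number of counts limited the calls was not tested.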
